A study of Arabidopsis thaliana with 4 samples.

Results

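The comparison described here sets shoot apices of the Arabidopsis thaliana mutant as2-1 against those of the wild type Col-0 when both were grown on DMSO, the solvent of the inhibitor used elsewhere in the study. It was taken from the labels as the array titled as2-1 DMSO against the array titled Col-0 DMSO, which are 2 of the 4 arrays. Both genotypes are in the Col-0 background per the labels, and the plants were grown on Murashige and Skoog agar for 14 days with 16 hours of light and 8 hours of dark. The other 2 arrays hold the same genotypes grown on 10H-CPT, a hydroxylated camptothecin, and the labels give no dose for it. Of the 22746 probe sets, 14069 had a signal above the floor of 46.6 on at least 1 of the 2 DMSO arrays and are called measured. That floor is the 40th percentile of the signals pooled over the 4 arrays.

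There is 1 array per group, so no ratio has a replicate error, no test was possible and every value is a description of these arrays. The labels do not say how many plants were pooled, nor what the as2-1 lesion is. In such bulk samples, fewer cells of a type and less RNA per cell cannot be told apart.

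Asymmetric leaves2 (AS2) encodes a plant-specific nuclear protein that acts with the MYB protein AS1. Together they repress class 1 KNOX genes, which keep meristem cells undifferentiated, and genes of the abaxial (lower) leaf side such as ETTIN. Leaves of as2 mutants are asymmetrically lobed, and the mutants are sensitised to further losses of leaf polarity. Camptothecins trap DNA topoisomerase I on DNA, and the title of the series names AS2 and this enzyme as its subject.

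The as2-1 apices differed from the wild type by a small share of the transcripts. On DMSO, 146 probe sets (1.04% of those measured) stood at least 2-fold higher in as2-1, 154 (1.09%) stood at least 2-fold lower, and together they made up 2.13%. QQS, an orphan gene known to affect leaf starch, was at least 9.74-fold higher. BCAT4, the aminotransferase that starts the chain elongation of methionine for glucosinolates, was 5.52-fold higher. Among named genes with both DMSO signals above the floor, the largest ratios on the lower side were those of AT2G20670, at 4.56-fold, and of MSRB9, a methionine sulfoxide reductase, at 4.45-fold. EXO, a gene of cell expansion, and the transcription factor gene BZIP61 were also over 3-fold lower.

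Most transcripts were alike in the mutant and the wild type. The ratio was within 1.2-fold for 9093 of the measured probe sets (64.6%), and the median log2 ratio over all of them was 0.01. The SD of the log2 ratio was 0.36 over the 13232 probe sets with both signals above the floor, and in it genotype, plants and array noise cannot be told apart. Past 4-fold, 17 probe sets were higher and 11 lower, and past 5-fold 11 were higher and 5 lower. The median size among those measured on both sides was 2.43-fold for 122 higher and 2.31-fold for 136 lower. For the remaining 24 and 18, the dimmer signal lay below the floor, and the ratio is given as a bound. Near the threshold, 124 probe sets lay between 1.8-fold and 2.2-fold higher and 141 between the same limits lower.

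Among the probe sets above the floor on both arrays, the share past 2-fold varied little with brightness. It was 1.77% in the dimmest of 3 equal classes, 2.13% in the middle class and 1.95% in the brightest. These classes leave out probe sets with 1 signal below the floor, which hold 24 of the higher and 18 of the lower ones. The shares thus do not cover the dimmest signals. The central 95% of log2 ratios ran from −0.70 to 0.78 in the dimmest class and from −0.65 to 0.64 in the brightest. Of all probe sets past 2-fold, 48.7% were higher, and 58.8% were when the floor was lowered to the 20th percentile, which lets in dimmer signals. With the floor raised to the 60th percentile, 15 of the 33 genes named by rule as past 2-fold were under it. These were APL3, AT3G02500, AT2G41190, AT5G05250, AT1G20070, AT5G15950 and AT1G33440 on the higher side. On the lower side they were AT3G49160, BZIP61, AT4G10910, AT4G16260, THI2.1, AT5G03120, AT1G66860 and EXLB1.

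**Figure D1:**
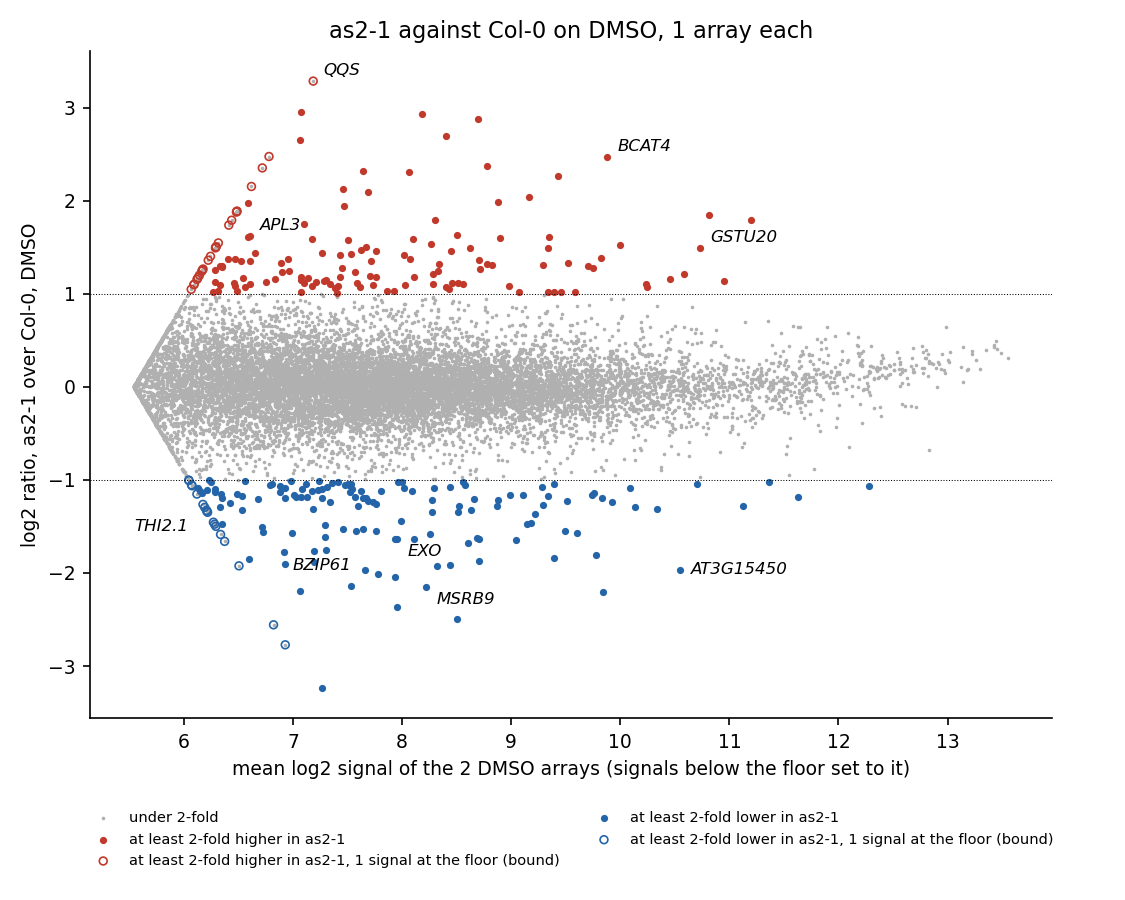
Each point is 1 measured probe set, with the mean log2 signal of the 2 DMSO arrays on the horizontal axis and the log2 ratio of as2-1 over Col-0 on the vertical axis. The 146 red and 154 blue points are at least 2-fold higher or lower, open circles are bounds with 1 signal at the floor of 46.6, and QQS is the highest point.

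Gene names were known for part of the probe sets only. The annotation used here pairs 7642 of the measured probe sets with 1 gene, of which 60 were at least 2-fold higher (0.785%) and 54 lower (0.707%), together 1.49%. Probe sets of 1 gene made up 54.3% of those measured and 38.0% of those past 2-fold. No gene was listed for 85 of the higher and 97 of the lower probe sets, and these include all 5 that were over 5-fold lower and 8 of the 11 that were over 5-fold higher. The largest ratio with both DMSO signals above the floor was that of such a probe set, picked out after its value was seen. It had 472.3 in the wild type and 50.2 in the mutant, a 9.40-fold difference. AS2 itself, AS1, ETT, KAN2, FIL, STM, KNAT1, KNAT2 and KNAT6 have no probe set named in this annotation and were not analysed here, so the labels could not be checked against the mutated gene.

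Genes of methionine-derived glucosinolates, the sulphur-rich defence compounds of the Brassicaceae, stood higher in as2-1 on DMSO. All 3 measured members of the list were at least 2-fold higher, against 0.785% of all measured probe sets of 1 gene. Their median log2 ratio was 1.49, against 0.01 over all measured probe sets. This list, like the others, was drawn up with earlier results of these data known, so its counts only describe. The BCAT4 signal was 400.7 in the wild type and 2213 in the mutant on DMSO. On 10H-CPT it was 6471 in Col-0 and 6321 in as2-1, so that both arrays were brighter than on DMSO and lay 1.02-fold apart. GSTU20, a tau-class glutathione S-transferase placed in this list, had signals of 1016 and 2849 on DMSO, a 2.80-fold difference. On 10H-CPT its signals were 5656 in Col-0 and 5753 in as2-1, again close together and brighter than on DMSO.

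AT2G31790, the other member, also had its brightest signals on 10H-CPT. It had 235.1 in the wild type and 662.6 in the mutant on DMSO, 2.82-fold apart, and 1541 and 1686 on 10H-CPT. UGT74B1, the glucosyltransferase that adds the sugar of the glucosinolate core, had 823.8 and 1768 on DMSO, 2.15-fold higher in as2-1. On 10H-CPT its signals were 2465 in Col-0 and 2646 in as2-1. The median log2 ratio of the methionine list on 10H-CPT was 0.02. The glucosinolate transporter genes GTR1 and GTR2 were 1.54-fold and 1.67-fold higher in as2-1 on DMSO, both under 2-fold. The list was drawn up with 21 genes, and the other 18 have no named probe set here.

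QQS and starch genes formed the other list with more than 1 member past 2-fold. The QQS signal of the wild type on DMSO was 34.7, which is below the floor, and that of the mutant was 454.3. On 10H-CPT it had 62.5 in Col-0 and 385.1 in as2-1, a 6.16-fold difference, so both mutant arrays stood above both wild-type arrays. APL3, a large subunit of ADP-glucose pyrophosphorylase, the enzyme that commits carbon to starch, had 55.6 in the wild type and 170.6 in the mutant on DMSO, 3.07-fold higher. Its signals on 10H-CPT were 57.4 in the wild type and 332.9 in the mutant, 5.80-fold apart. DPE1, an enzyme of starch breakdown, was level, with 592.0 and 627.2 on DMSO. Of the 3 measured members 2 were at least 2-fold higher, beside 0.785% of all measured probe sets of 1 gene. The median of the list, which is the value of APL3, was 1.62 on DMSO and 2.54 on 10H-CPT. This list was drawn up with 18 genes, of which 3 have a named probe set here. With the floor at the 60th percentile the log2 ratio of APL3 on DMSO and the median of the list were both 0.31, under 2-fold.

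**Figure D2:**
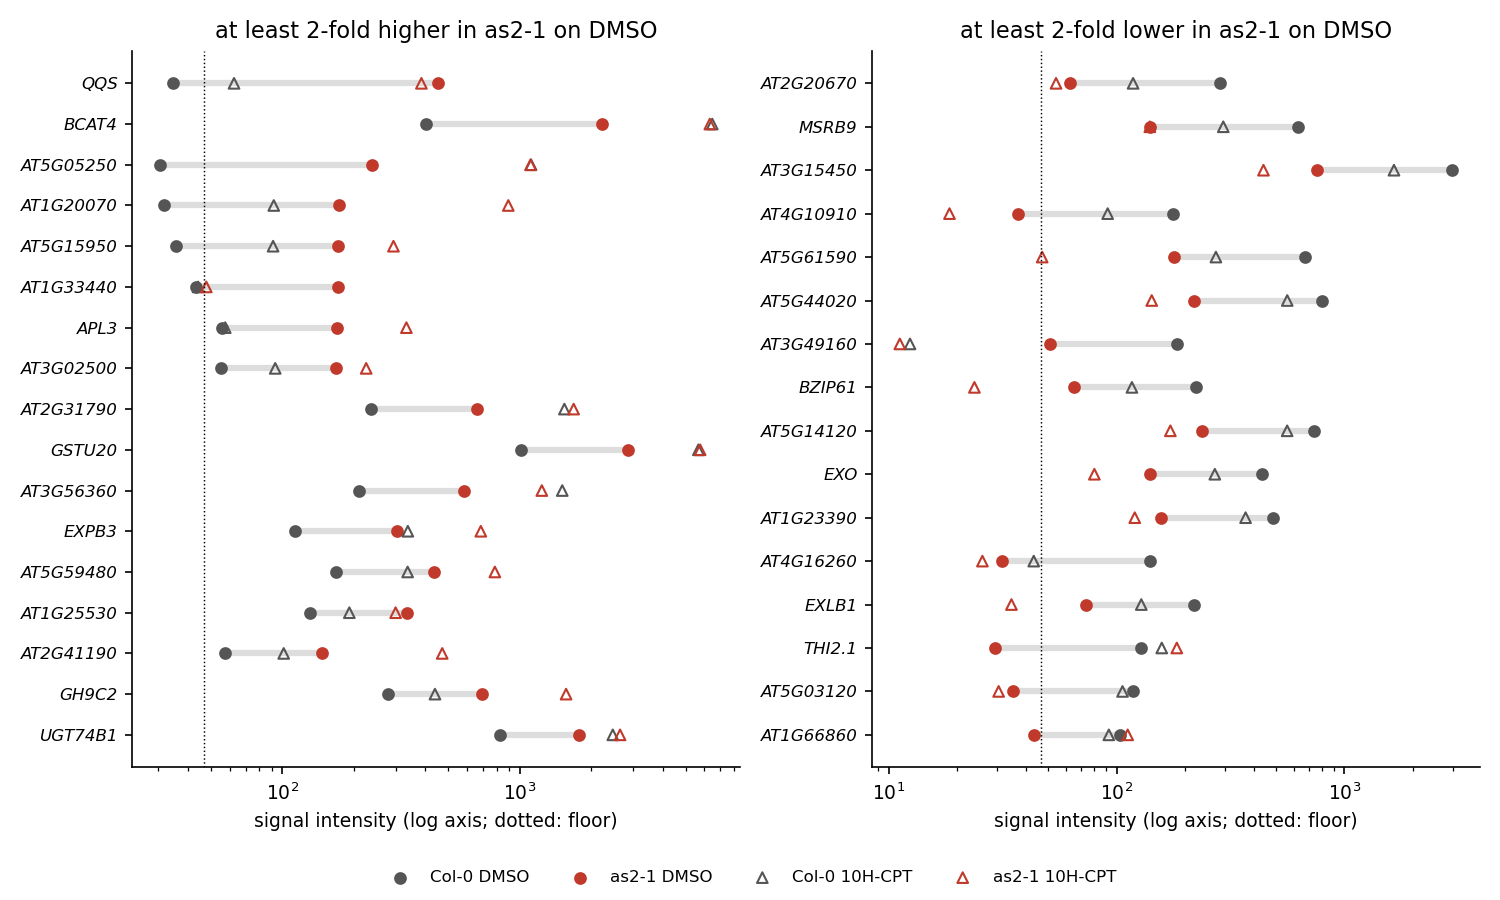
Signals on a log axis of named genes at least 2-fold apart on DMSO, with the 2 DMSO arrays as filled circles, the 2 10H-CPT arrays as open triangles and the floor of 46.6 as a dotted line. For BCAT4, GSTU20, AT2G31790 and UGT74B1 both triangles lie to the right of both circles and close together, while for QQS both red marks lie apart from both grey ones.

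Among the leaf polarity genes, none of the 4 measured members of the list reached 2-fold, beside 1.49% of all measured probe sets of 1 gene. With so few genes and so small a share, this count says little about the list. The median log2 ratio of the list was 0.35, or −0.070 with the floor at the 60th percentile, and −0.21 on 10H-CPT. YAB5, a YABBY gene of the abaxial leaf side, had a signal of 63.8 in Col-0 and 114.5 in as2-1, 1.8-fold higher. On 10H-CPT it had 75.7 in Col-0 and 137.5 in as2-1, 1.82-fold higher, so each mutant array stood above both wild-type arrays. AGO7, which is needed to make the small RNAs that target ETTIN, had 69.0 in the wild type and 136.9 in the mutant on DMSO, just under 2-fold, but 88.4 and 70.3 on 10H-CPT. YAB3, another abaxial YABBY gene, had 253.9 and 180.2, a log2 ratio of −0.49. PHV, a class III HD-ZIP gene of the adaxial (upper) side, had 489.5 and 444.2, a log2 ratio of −0.14. The 10 core genes of the AS1-AS2 pathway had 1 named probe set between them, that of YAB5. The polarity list was drawn up with 24 genes, of which 4 have a named probe set, so most of it was not seen.

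Genes of cell wall loosening lay on both sides. These groups, and others by family further on, were formed by their symbols after the values had been seen, so their counts only describe. Over all measured probe sets of 1 gene, 0.785% were at least 2-fold higher and 0.707% at least 2-fold lower. Of 9 measured expansins, proteins that loosen the wall, 2 were at least 2-fold higher and 1 was lower, with a median log2 ratio of 0.22. EXPB3 had 112.8 in the wild type and 303.9 in the mutant on DMSO, 2.69-fold higher, and 337.6 and 685.3 on 10H-CPT. EXPA15 had 257.4 and 554.2 on DMSO, 2.15-fold higher, and 593.1 and 1219 on 10H-CPT. Both genes thus stood higher in as2-1 within each treatment.

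The expansin-like gene EXLB1 stood on the other side. It had 219.3 in the wild type and 73.5 in the mutant on DMSO, 2.98-fold lower. On 10H-CPT it had 128.5 and 34.6, the latter below the floor, so at least 2.76-fold lower. Of 6 measured GH9 endoglucanases, which cut cellulose-type glucans, 3 were at least 2-fold higher and 0 lower, beside 0.785% and 0.707% of all probe sets of 1 gene, with a median of 0.55. GH9C2 had 278.7 in Col-0 and 694.3 in as2-1, 2.49-fold higher, and 439.2 and 1567 on 10H-CPT. GH9B8 had 205.3 and 474.0, 2.31-fold higher, and 186.2 and 418.7 on 10H-CPT. GH9B13 had 494.5 and 1003, 2.03-fold higher, but 835.7 and 712.9 on 10H-CPT.

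Xyloglucan endotransglucosylase/hydrolases cut and rejoin the xyloglucan that ties cellulose fibres together. Of 4 measured, 2 were at least 2-fold lower and 0 higher, beside 0.707% and 0.785% of all probe sets of 1 gene, with a median log2 ratio of −0.32. EXGT-A3 had 571.3 in Col-0 and 235.1 in as2-1, 2.43-fold lower, and 447.3 and 218.3 on 10H-CPT. XTH16 had 504.9 and 238.8, 2.11-fold lower, and 570.4 and 159.3 on 10H-CPT. XTH19 and XTH32 had log2 ratios of 0.43 and 0.52. Pectin methylesterases showed no such spread, with all 4 measured between −0.34 and 0.09.

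EXO, or EXORDIUM, encodes a secreted protein that promotes cell expansion and responds to brassinosteroids. Its signals were 436.7 in the wild type and 140.5 in the mutant on DMSO and 270.0 and 80.0 on 10H-CPT, 3.11-fold and 3.38-fold lower in the mutant. AT3G15450 had 2972 in the wild type and 757.7 in the mutant on DMSO and 1651 and 441.5 on 10H-CPT, 3.92-fold and 3.74-fold lower. AKINBETA1, a subunit of the SnRK1 energy-sensing kinase listed with EXO among dark-inducible and sugar-repressed genes, had 545.3 and 285.8 on DMSO, 1.91-fold lower.

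AT5G61590, named Decrease Wax Biosynthesis in the reference, encodes a factor that represses wax genes. It had 674.6 in the wild type and 179.5 in the mutant on DMSO, and 273.0 and 47.2 on 10H-CPT, 3.76-fold and 5.79-fold lower. BZIP61, a basic leucine zipper factor, had 223.1 and 65.3 on DMSO, 3.41-fold lower, and 116.9 and 23.8 on 10H-CPT, at least 2.51-fold lower. The other 5 measured bZIP genes lay between −0.21 and 0.58 on the log2 scale.

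MSRB9, which repairs oxidised methionine in proteins, had 627.4 in the wild type and 140.9 in the mutant on DMSO and 294.1 and 140.0 on 10H-CPT. Its 3 measured relatives MSRB3, MSRB5 and MSRA5 had log2 ratios of 0.35, 0.29 and −0.15 on DMSO. THI2.1, an antimicrobial thionin that responds to jasmonate, had 127.8 in Col-0 and 29.3 in as2-1, at least 2.74-fold lower. On 10H-CPT it had 158.0 and 183.9, so the as2-1 array on DMSO was the only one below the floor. All 5 measured defensins and thionins had log2 ratios below 0 on DMSO. Of these 1 was past 2-fold, THI2.1, beside 0.707% of all measured probe sets of 1 gene on the lower side. The other 4 lay between −0.39 and −0.01.

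Further genes with symbols passed 2-fold on DMSO and were picked after their values were seen. MT1C, a metal-binding metallothionein, had 1330 in Col-0 and 2933 in as2-1, 2.2-fold higher, and 2215 and 5195 on 10H-CPT. BETA-VPE, a vacuolar processing protease, had 145.6 and 310.9, 2.14-fold higher, and 63.6 and 276.8 on 10H-CPT. Both were thus higher in as2-1 in each treatment. BGLU47, a beta-glucosidase, was above the floor only in as2-1 on DMSO, with 107.1 against 25.7 in Col-0, at least 2.30-fold higher.

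ECS1 had 4762 in the wild type and 2103 in the mutant on DMSO, 2.26-fold lower, but 1513 and 1756 on 10H-CPT. OSM34, an osmotin-like protein of stress responses, had 266.1 and 128.7 on DMSO, 2.07-fold lower, and lay below the floor on both 10H-CPT arrays. IQD24, of a family of calmodulin-binding proteins, had 114.2 and 53.4 on DMSO, 2.14-fold lower, but 62.2 and 67.5 on 10H-CPT. ECS1 and IQD24 thus differed by less than 1.2-fold on 10H-CPT.

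Few members of other gene groups passed 2-fold on DMSO. Over all measured probe sets of 1 gene the share was 1.49%, so a count of 0 in a small group says little. The 66 measured chloroplast-encoded genes lay between −0.68 and 0.41 on the log2 scale with a median of −0.05, and 0 of them passed 2-fold. The 7 tubulins lay between −0.23 and 0.28, the 10 cytochromes P450 between −0.88 and 0.93, and the 6 RALF-like signalling peptides between −0.18 and 0.50, also with 0 past 2-fold. Of 23 UDP-glucosyl transferases 1 passed, UGT74B1, and their median was 0.03. Of 7 glutathione S-transferases 1 passed, GSTU20, and their median was 0.32. Both passing genes were given above with the glucosinolates. The 5 measured WRKY factors, many of which act in defence, had log2 ratios of 0.10 to 0.43, all above 0 and all under 2-fold.

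**Figure D3:**
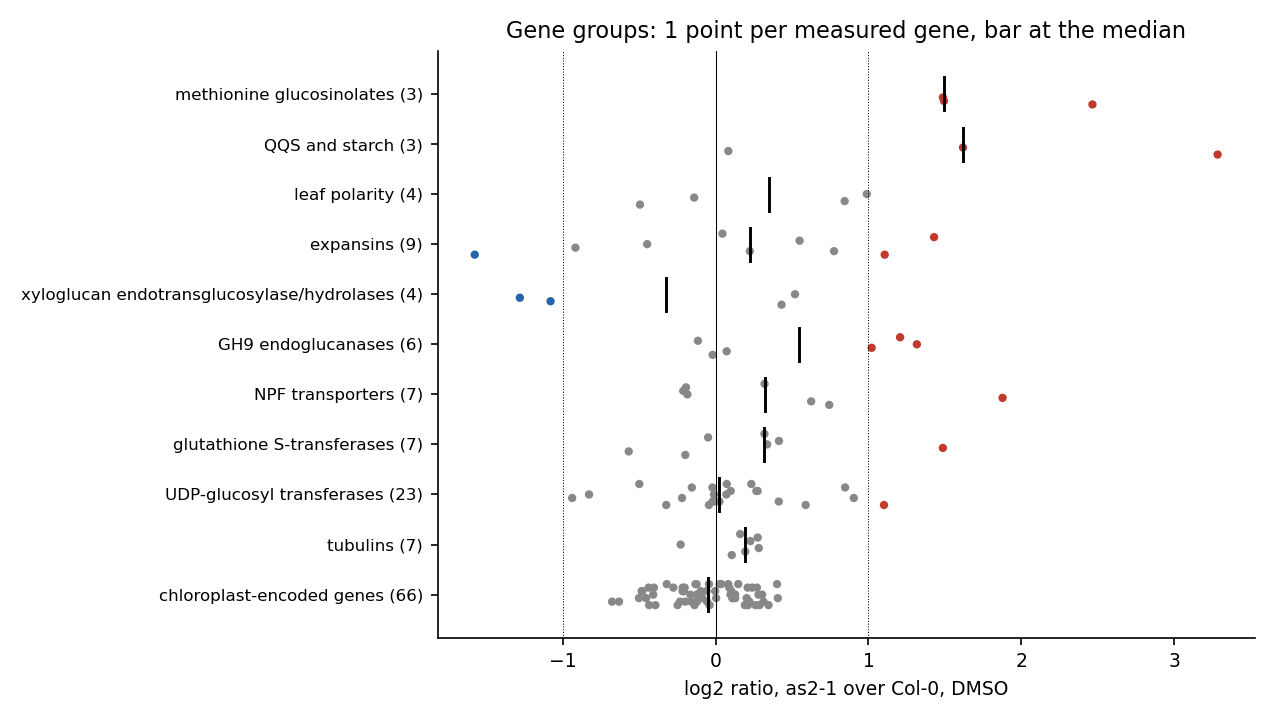
Log2 ratio of as2-1 over Col-0 on DMSO for each measured gene of 11 groups, with the number of genes in brackets, a black bar at the median, and red or blue points past 2-fold. All 3 methionine glucosinolate genes lie to the right of the line at 1, the expansins lie on both sides, and 0 of 66 chloroplast-encoded genes passed.

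The lists of auxin response, cold and abscisic acid, and flavonoid genes had 3 measured members each. Of these 0 passed 2-fold on DMSO, beside 1.49% of all measured probe sets of 1 gene. The median log2 ratios of these lists were −0.02, 0.03 and 0.41, and a floor raised to the 60th percentile brought the last to 0.00. On 10H-CPT the medians of the same lists were −0.57, 1.78 and 1.94. COR47, a cold-induced dehydrin, had 402.9 in the wild type and 635.2 in the mutant on DMSO, and 425.3 and 1460 on 10H-CPT. DFR, an enzyme of anthocyanin synthesis, had 61.6 and 87.2 on DMSO, and 176.5 and 697.6 on 10H-CPT. Both were under 2-fold apart between the genotypes on DMSO and over 3-fold apart on 10H-CPT, and the difference between the treatments was not tested. The cell wall list had 1 of 3 measured members past 2-fold, EXLB1, beside 1.49% of all measured probe sets of 1 gene. Its median was 0.04. Of the 26 lists, 7 had at least 3 measured members and are described.

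The labelled tissue could be checked against few markers. Of 13 markers of the shoot apex and leaf primordia only CLV3, the stem cell peptide gene, has a named probe set, and its signal was below the floor on all 4 arrays, between 1.10 and 15.0. The root-enriched genes EXPA7 and AT5G66390 were below 10 on every array. Of the 2 senescence genes with a named probe set, SAG29 was below the floor on every array. The other, WRKY6, was above the floor only in as2-1 on DMSO, with 61.5 against 45.1 in Col-0. RCA, the activase of Rubisco, had 2452 in the wild type and 1513 in the mutant on DMSO, and PORB, an enzyme of chlorophyll synthesis, had 2087 and 1537. These 2 markers of green tissue were thus lower in as2-1 by 0.70 and 0.44 on the log2 scale, and their part in the other differences was not tested. The 4 arrays had median signals of 86.0 to 88.4 and 13590 to 13711 probe sets above the floor.

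The pair of arrays on 10H-CPT compares the same genotypes and shares no array with the DMSO pair. It is not a replicate, since the treatment differs, but it shows which DMSO differences were also present in separate samples. In that pair 381 probe sets of the 14147 measured (2.69%) stood higher in as2-1 by 2-fold or more, and 222 (1.57%) stood lower. Of the 146 probe sets higher on DMSO, 142 were measured on 10H-CPT, and 119 of those were higher there too (83.8%), against 48.6% of all probe sets measured in both pairs. Of the 154 lower on DMSO, 139 were measured, and 109 were lower there too (78.4%), against 51.4% of all.

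Both pairs showed a difference of 2-fold or more towards as2-1 for 47 probe sets, which is 32.2% of the DMSO list and 12.3% of the 10H-CPT list. The count on the lower side was 65, or 42.2% and 29.3% of these lists. Among the lower ones the share was larger with the size of the DMSO difference. It was 36.0% of 86 below 2.5-fold, 60.6% of 33 between 2.5-fold and 3.5-fold and 70.0% of 20 beyond. Among the higher ones it was 31.1% of 74, 38.6% of 44 and 29.2% of 24 in the same classes, so it did not follow the size.

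Among genes of 1 named probe set with all 4 signals above the floor, APL3, AT2G41190, GH9C2, AT3G02500 and AT5G59480 had the largest smaller change of the 2 pairs on the higher side. QQS, below the floor on 1 array, was outside this rule and has been given above. AT2G41190 had 57.6 in the wild type and 146.6 in the mutant on DMSO and 101.3 and 471.3 on 10H-CPT. AT3G02500 was higher by 3.04-fold on DMSO, against 2.42-fold on 10H-CPT, and AT5G59480 by 2.59-fold and 2.33-fold. AT1G20070 and AT5G15950, neither above the floor in the wild type on DMSO, were higher there by at least 3.70-fold and 3.69-fold, and by 9.73-fold and 3.21-fold on 10H-CPT. AT1G25530 was 2.56-fold higher on DMSO and 1.57-fold on 10H-CPT.

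On the lower side the same rule gave AT5G61590, AT3G15450, AT5G44020, AT5G14120 and EXO. AT5G44020 had 800.9 in the wild type and 218.3 in the mutant on DMSO, 3.67-fold lower, and 561.5 and 142.7 on 10H-CPT, 3.93-fold lower. AT5G14120 had 737.5 and 236.8 on DMSO and 561.0 and 172.3 on 10H-CPT. AT1G23390 was 3.1-fold and 3.06-fold lower, so for these genes the ratio was much the same size in both treatments. AT2G20670 was lower by 4.56-fold on DMSO, against 2.18-fold on 10H-CPT. The bounds for AT5G03120 were at least 2.52-fold and 2.28-fold lower, and for AT4G10910 at least 3.79-fold and 1.96-fold lower, on DMSO and 10H-CPT.

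**Figure D4:**
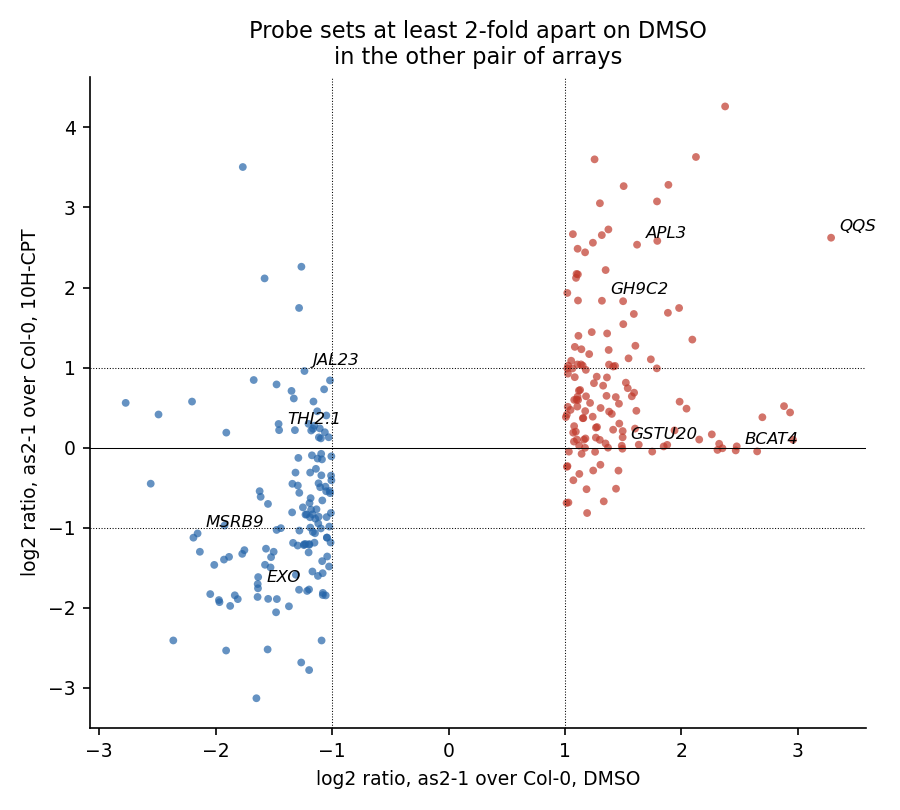
Probe sets at least 2-fold apart on DMSO that were also measured on 10H-CPT, with the log2 ratio of as2-1 over Col-0 on DMSO on the horizontal axis and on 10H-CPT on the vertical axis, and dotted lines at 2-fold. Of the higher ones 119 of 142 lie above 0 on 10H-CPT, BCAT4 and GSTU20 lie near 0, and of the lower ones 109 of 139 lie below 0.

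Other DMSO differences were not seen on 10H-CPT. Of the 142 higher probe sets measured there, 40 were within 1.2-fold on 10H-CPT (28.2%), and among the 24 that were at least 3.5-fold higher on DMSO, 12 were (50%). Among the lower ones these counts were 16 of 139 (11.5%) and 1 of 20 (5.0%), and among all probe sets measured in both pairs the share was 53.1%. The 12 strongest of these higher probe sets had median signals of 71.4 in the wild type and 361.0 in the mutant on DMSO, and of 1376 in Col-0 and 1451 in as2-1 on 10H-CPT. Both 10H-CPT medians were thus brighter than the as2-1 median on DMSO.

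AT5G05250 had the ratio nearest to 1 on 10H-CPT among the genes named by rule as higher on DMSO. It had 30.5 in the wild type and 237.9 in the mutant on DMSO, at least 5.10-fold higher, and 1116 and 1110 on 10H-CPT. AT3G56360 had 211.2 and 580.5 on DMSO, 2.75-fold higher, but 1510 and 1239 on 10H-CPT, 1.22-fold lower in as2-1. BCAT4, GSTU20, AT2G31790 and UGT74B1, described above, likewise had both 10H-CPT signals above both DMSO signals. A different pattern was that of AT1G33440, named NPF4.4 in the reference, a member of the NPF transporter family. It had 171.3 in as2-1 on DMSO and 43.1 to 47.8 on the other 3 arrays, so it stood apart on 1 array only.

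Some named lower genes were also seen on DMSO only. AT3G49160 had 184.6 in the wild type and 51.0 in the mutant on DMSO, 3.62-fold lower, and lay below the floor on both 10H-CPT arrays at 12.4 and 11.2. AT4G16260 had 140.0 and 31.5 on DMSO, at least 3.0-fold lower, and was likewise below the floor on both 10H-CPT arrays. AT1G66860 had 103.6 and 43.3 on DMSO, at least 2.22-fold lower, but 92.5 and 111.9 on 10H-CPT. Of the 139 probe sets lower on DMSO and measured on 10H-CPT, 4 were at least 2-fold higher there. Over all probe sets measured on 10H-CPT, the share at least 2-fold higher was 2.69%. Of the 142 higher on DMSO and measured there, 0 were at least 2-fold lower, beside 1.57% of all.

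The differing genes were spread over all chromosomes. Of the measured probe sets of 1 gene, the share past 2-fold was 1.76% of 1984 on chromosome 1, 1.66% of 1085 on chromosome 2, 1.35% of 1553 on chromosome 3, 1.35% of 1113 on chromosome 4 and 1.38% of 1812 on chromosome 5. On chromosome 1, which carries AS2, 22 were higher and 13 lower. Within 50 measured genes of AS2 on either side, 3 of 100 were higher and 1 lower (4.0%), against 1.49% of all probe sets of 1 gene. Within 200 genes on either side the share was 2.0% of 400, with 6 higher and 2 lower. On 10H-CPT, 7 of the 100 nearest AS2 were at least 2-fold higher and 2 lower. Over the 1984 of chromosome 1 those counts were 44 and 23. The counts near AS2 are small, and no test was made.

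The 4 genes within 50 genes of AS2 were AT1G65900, AT1G64620, GH9C2 and AT1G66860. AT1G65900, which lies 3 measured genes from AS2, had 346.5 in the wild type and 731.6 in the mutant on DMSO, 2.11-fold higher, and 446.3 and 537.9 on 10H-CPT. AT1G64620 had 105.3 and 231.6 on DMSO, 2.2-fold higher, and 195.2 and 401.5 on 10H-CPT. GH9C2 and AT1G66860 have been given above. AT1G64620 and GH9C2 were thus at least 2-fold higher in both treatments. AT1G65900 was higher by that much on DMSO alone, and AT1G66860 was lower on DMSO alone.

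**Figure D5:**
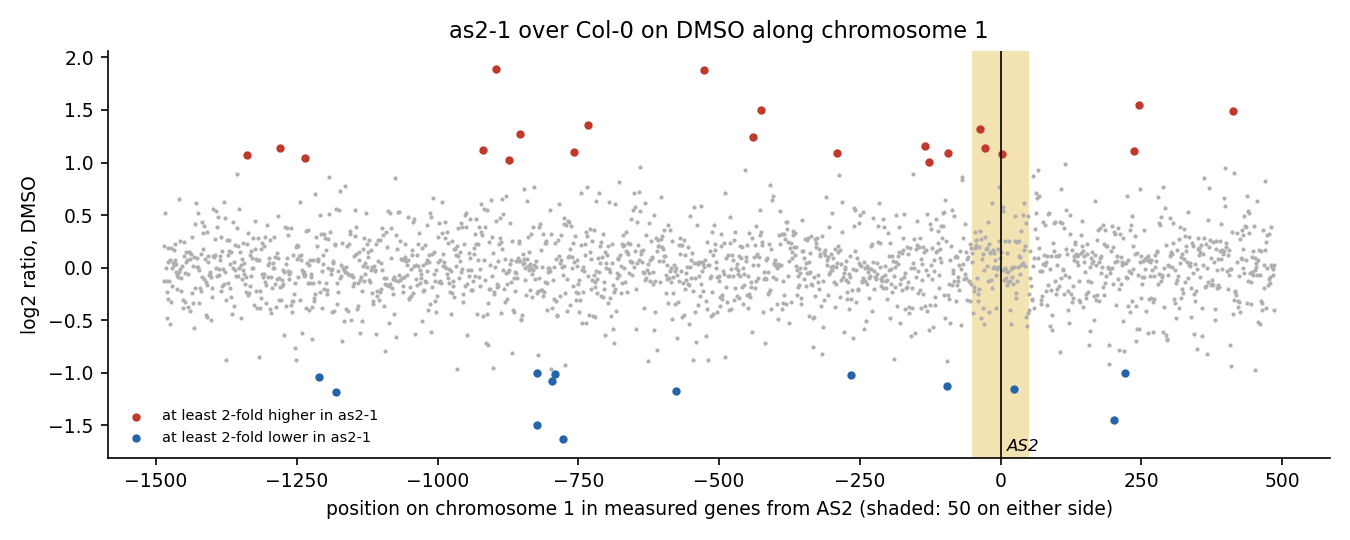
Log2 ratio of as2-1 over Col-0 on DMSO for measured genes of chromosome 1, placed by their order counted in measured genes from AS2, with 50 genes on either side of AS2 shaded. The 22 red and 13 blue points are at least 2-fold higher or lower and are spread along the chromosome, with 3 red and 1 blue inside the shading.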

How the data were processed

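The authors deposited 1 linear signal intensity for each probe set of an array, made with MAS5 per the submitters' processing notes. The sources used here do not give its version, its scaling target or detection calls. Per the labels' protocols, biotin-labelled cRNA made from total RNA was hybridised.

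Each array was rescaled to one trimmed mean, leaving out 2% at each end (factors 0.99935 to 1.0006). Signals below the 40th percentile of all values (46.6) were set to that floor before log2 was taken, with no pseudocount. A probe set was measured where at least 1 signal of the pair was above the floor, and where the dimmer side lay at the floor the ratio is a bound, printed as at least N-fold. Ratios past 2-fold were counted with no test. The number of arrays limits the precision. The counting was tested on simulated data. The planted changes were larger than 2-fold and lay in bright probe sets, with noise below the SD of the log2 ratio here. That run does not show how often calls near 2-fold or near the floor are wrong.

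Genes came from the platform's annotation, which can be old: 13513 probe sets had 1 gene, 503 several and 8730 none listed here. Of the first, 13436 matched the reference gene table (assembly TAIR10.1) by locus. Each gene took its probe set with the highest mean signal, and the group counts use that 1 probe set.

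Genes were named by rule: the 10 highest and 10 lowest ratios with both signals above the floor, the 5 brightest bounds in each direction, the 5 in each direction with the largest smaller change over both genotype pairs among those with all 4 signals above the floor, members of the lists past 2-fold, and the core AS1-AS2 genes. The 1061 probe sets with an _s_at or _x_at suffix were kept out of this rule. The comparison, the rule and the 26 lists (420 loci, 57 with a named probe set) were chosen with earlier results of these data known, and the groups by symbol, the 1.2-fold limit and the size classes after the values were seen. Other settings tried were no rescaling, quantile normalization, a loess correction, floors at the 20th and 60th percentile, thresholds of 1.5-fold and 3-fold, leaving out _s_at and _x_at, and the mean over a gene's probe sets. Python 3.11.15, numpy 2.4.6, pandas 2.3.3, statsmodels 0.14.6 and matplotlib 3.10.9 were used.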

Additional observations from a re-analysis of the deposited data

Results flagged for a closer look

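In 4 named genes the as2-1 signal lay over 2-fold to one side of Col-0 on DMSO and over 1.5-fold to the other side on 10H-CPT, with 1 array per group, and the difference between the treatments was not tested. JAL23, a jacalin-related lectin, had 327.4 in the wild type and 138.9 in the mutant on DMSO, and 877.9 and 1705 on 10H-CPT. Its log2 ratio on 10H-CPT minus that on DMSO was 2.19. For AT1G54020 the signals were 241.7 and 119.4 on DMSO, and 615.3 and 1102 on 10H-CPT, a difference of 1.86. AT2G25510 had 7190 and 3428 on DMSO, and 1681 and 2786 on 10H-CPT, a difference of 1.8. AT3G45680 went the other way, with 62.9 and 128.3 on DMSO, and 121.3 and 75.5 on 10H-CPT, a difference of −1.71.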

How the results depend on the processing

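The counts past 2-fold stayed within 1.5 times of those reported under the values as deposited, quantile normalization, the loess correction and without _s_at and _x_at probe sets. They depended on the floor and the threshold. With the floor at the 20th percentile (9.90), 551 probe sets were higher and 386 lower, and 105 and 99 were so in both pairs. With the floor at the 60th percentile (137.3) the counts were 77, 82, 23 and 38. At 1.5-fold they were 640, 597, 243 and 214, and at 3-fold 36, 35, 10 and 13. The floor at the 60th percentile also moved the median log2 ratio of the polarity list to −0.070, of the flavonoid list to 0.00 and of the QQS and starch list to 0.31, since dim members then sit at the floor. Of 170 values of named genes under the alternatives, 145 stayed close, 25 moved with the floor and 0 changed sign. A change of floor cannot turn the sign of a ratio, and the values as deposited could hardly do so. The lack of sign changes was thus largely fixed in advance. With the floor at the 60th percentile 18 moved, and 15 of the 33 past 2-fold dropped under it, 3 of them (THI2.1, AT5G03120 and AT1G66860) to exactly 0. Under the 3 other scalings 0 dropped under 2-fold, but the loess correction left the bounds unchanged. A lower floor can only keep or enlarge a ratio, so none could drop under 2-fold with the floor at the 20th percentile. The counts of each symbol group past 2-fold were the same under all 4 scalings. The values as deposited differ from the main ones only by factors of 0.99935 to 1.0006, so those counts could hardly differ. No paired analysis was possible because each group has 1 array and the labels give no replicate numbers. The number of plants, the dose and the spread between samples are unknown, so a ratio near 2-fold here has no measured error.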
